A study of Homo sapiens with 8 samples.

Results

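This account covers 33 genes that low oxygen is known to induce and that lie outside glycolysis proper and angiogenesis. They were chosen by symbol from the 24252 genes of each table, and all 33 were found, each under 1 gene ID. RNA was sequenced from HaCaT, a spontaneously immortal human keratinocyte line, in 4 libraries labelled Control and 4 labelled OGD-R. OGD-R is the field's usual short form for oxygen and glucose deprivation followed by their return, which the labels do not spell out, and the cells were taken at a stage described as early. The Control libraries carry no treatment label, and the labels leave out how long deprivation and return lasted. The title of the series names complex regional pain syndrome, in which a limb stays painful after injury, and the comparison made here is of keratinocyte RNA between OGD-R and Control. Nothing in the labels ties replicates to separate cultures, so each p-value reflects only how far these libraries spread, which may be technical. Because all samples are bulk RNA, fewer cells with an RNA and less of it per cell cannot be told apart.

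When oxygen is low, hypoxia-inducible factor (HIF) escapes degradation, pairs with its partner ARNT and binds DNA at sites with the core ACGTG or GCGTG. The RNAs it raises include enzymes that steer pyruvate away from mitochondrial oxidation, receptors that mark mitochondria for removal, enzymes that mature collagen, and oxygen-using demethylases. When oxygen returns, HIF is degraded again and these RNAs decay at their own rates. Several of the genes also answer to other signals: DDIT4 to glucocorticoids and stress, and BHLHE40 to growth and clock signals.

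The core ACGTG was looked for in the 250 bases before 1 RefSeq start per gene, because it is a core that HIF binds. Other starts of the same gene were not looked at. RefSeq promoters (GRCh38.p14) matched 25 of the 33 symbols. For 20 of these a short stretch just after the start occurred somewhere in a GENCODE 29 transcript of the gene. That does not show that the starts agree. The stretch was not found for PFKFB3, PPP1R3C, PLOD2, RORA and GPR146. ACGTG, on either strand, occurred in 14 of these 25 promoters, against 18.7% of 27305 promoters of the same length. GCGTG occurred in 13 of the 25, against 31.9% of all. CACGTG, which contains ACGTG on both strands, occurred in 8 of the 25, against 6.49% of all. The promoters were not matched for base composition. A match describes letters in this window and is not a measured binding site. No RefSeq promoter matched HILPDA, BNIP3L, JMJD6, ZNF395, NDRG1, ANKZF1, FUT11 or SPAG4. ACGTG was absent from the windows used for PFKFB3, PFKFB4, PDK1, P4HA2, PLOD1, KDM3A, MXI1, RORA, ADM, TMEM45A and GPR146. This does not cover other starts of these genes. The RORA entry, for instance, lay at chr15:60627481-60627780, inside a minus-strand gene that reaches 61229319. The windows below come from some of the 14 promoters that held ACGTG. The motif is in capitals, and each window is read 5′ to 3′ on the strand of the gene (CACGT is ACGTG on the other strand).
P4HA1, chr10:73096936-73096964, minus strand: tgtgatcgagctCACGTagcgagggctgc
BHLHE40, chr3:4979251-4979279, plus strand: ggcagtggccagACGTGcctggagtcaca
DDIT4, chr10:72273787-72273815, plus strand: agaacgttgcttACGTGcgcccggagtcc
FAM162A, chr3:122384086-122384114, plus strand: cagcgcgtggcgCACGTcctacacgcccc
KDM4B, chr19:4968863-4968891, plus strand: gtcagcgggcACGTGggtgggcgccggcg
WSB1, chr17:27294001-27294029, plus strand: ggccggggagatCACGTcccgtgcgtcgg
The motif of P4HA1 ended 82 bases before the start, and that of DDIT4 ended 121 bases before it. Counting each strand separately, the BHLHE40 promoter held 4 matches and the WSB1 promoter held 3. In each of these promoters 1 CACGTG gave a match on both strands. The windows of BHLHE40 and P4HA1 precede the RefSeq start but lie inside the gene as bounded in GENCODE 29.

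Values were read as FPKM, fragments scaled by transcript length and library size, and were tested as log2(FPKM + 1). Libraries summed to between 428984 and 475385 FPKM, with 17188 to 18170 genes above 0. The Control libraries did not form 1 group. Across the 11740 genes tested, log2 values correlated at 0.992 between Controls 1 and 2 and at 0.991 between Controls 3 and 4, but at 0.874 to 0.881 across these pairs. Controls 1 and 2 correlated with OGD-R at 0.940 to 0.947, Controls 3 and 4 at 0.879 to 0.887, and the OGD-R libraries with each other at 0.992 to 0.993. The kinase CDK1, which drives mitosis, stood at 61.7, 73.3, 4.81 and 2.79 FPKM in Controls 1 to 4 but at 45.4 to 47.6 FPKM in OGD-R. The stress factor ATF3 stood at 5.01, 3.41, 147 and 139 FPKM in Controls 1 to 4 but at 3.20 to 4.56 FPKM in OGD-R. All 8 keratinocyte markers looked at were above 1 FPKM on average, with summed levels of 12269 to 20308 FPKM in Control and 15417 to 16324 FPKM in OGD-R. Of these, KRT5, KRT14 and DSG3 lay above every Control in OGD-R, and KRT6A and ITGB4 lay below. KRT17, TP63 and DSP overlapped between groups, with KRT17 at 2089 to 9933 FPKM over the Controls. Markers of fibroblasts summed to 0.882 to 8.72 FPKM in Control and 3.82 to 4.99 FPKM in OGD-R, most of it COL1A1, with COL1A2 at 0 in every library. Those of endothelium (0.0470 to 0.199 and 0.296 to 0.463 FPKM), leukocytes (0.0850 to 0.406 and 0.249 to 0.510 FPKM) and melanocytes (0.135 to 0.427 and 0.543 to 0.666 FPKM) were near 0, with TYR at 0 throughout, although the endothelial and melanocyte sums did not overlap between groups. Among the low fibroblast markers, LUM stood at 0 to 0.0581 FPKM in Control and 0.143 to 0.225 FPKM in OGD-R. DCN stood at 0 to 0.0327 and 0.105 to 0.540 FPKM, while COL3A1, PDGFRA and PDGFRB overlapped between groups. The part of these markers and of the Control split in any result was not tested, and members' values are therefore given for each Control library.

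The hypoxia-induced genes passed the test between OGD-R and Control in no larger a share than all tested genes. Of the 33, 28 had a mean of at least 1 FPKM and were tested. ANKZF1 and P4HA1 rose and JMJD6 fell, by limma with Benjamini-Hochberg adjustment over all 11740 genes. These 2 higher calls compare with 10.2% of all tested genes called higher, and the 1 lower call with 9.69% called lower, and the shares of members called were 7.14% and 3.57%. Calls this few do not set the members apart from all tested genes. Control values spread more for the members, with a median SD of log2(FPKM + 1) of 0.43 against 0.29 over all tested genes. A wider spread makes a call harder, so the share called does not measure how far levels differed. The median log2 fold change was -0.07 over the 28 members and 0.02 over all tested genes, with 11 members on the positive and 17 on the negative side. Of all 11740 tested genes, 6086 were on the positive and 5654 on the negative side. The members' signs depended on the Controls kept. Of 29 members tested with Controls 3 and 4 left out, 17 were positive and 12 negative. With Controls 1 and 2 left out these were 11 and 17 of 28. Levels ran from a mean of 1.22 FPKM (LOX) to 174 FPKM (DDIT4).

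**Figure D1:**
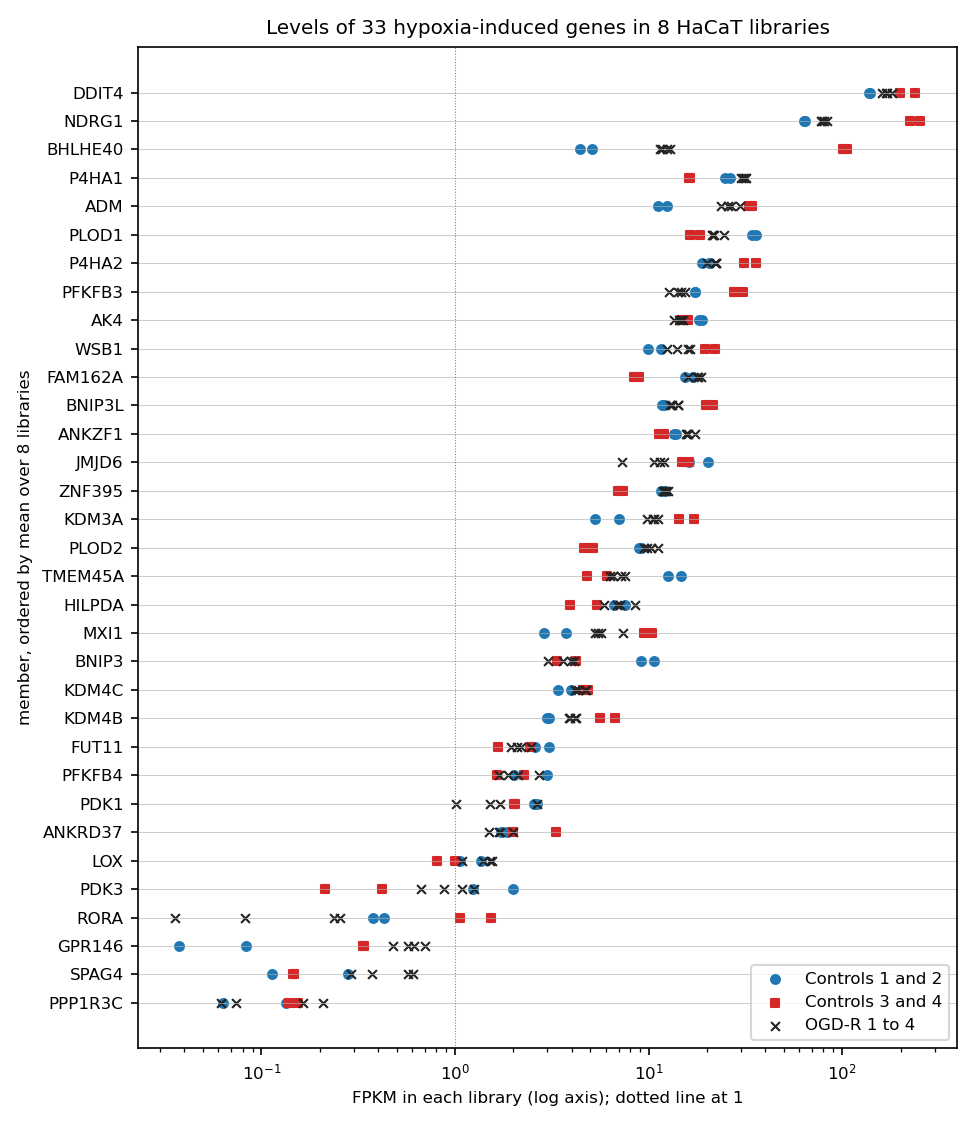
FPKM of each of the 33 genes in each library on a log axis, with circles for Controls 1 and 2, squares for Controls 3 and 4 and crosses for the 4 OGD-R libraries. For BHLHE40 the Controls span from 4.42 to 106 FPKM, while the crosses sit together at 11.5 to 12.9 FPKM.

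Among the collagen-modifying enzymes, P4HA1 rose in OGD-R and its relatives did not pass the test. P4HA1 encodes a catalytic subunit of collagen prolyl hydroxylase (ENSG00000122884, chromosome 10, 73007217 to 73096974, minus strand, GENCODE 29 on GRCh38). It was at 24.7, 26.3, 16.3 and 16.1 FPKM over Controls 1 to 4, and OGD-R 1 to 4 stood at 30.6, 31.4, 30.1 and 31.99 FPKM. All 4 OGD-R libraries were above the highest Control, and Controls 1 and 2 lay nearer to OGD-R than Controls 3 and 4 did. The log2 fold change was 0.58 ± 0.17 (SE; limma adjusted p = 0.0455). The call was lost without Control 3, without Control 4 and without each OGD-R library in turn (limma adjusted p = 0.0831 to 0.114), without the low-value filter (0.0621) and with a replicate block (0.0856). With Controls 3 and 4 left out it was 0.27 (limma adjusted p = 0.00469), and with Controls 1 and 2 left out 0.90 (limma adjusted p = 1.49e-06). Here and for the genes below, the pairs were formed from the split seen in these data. Such fits share the OGD-R libraries, and their p-values rest on the spread within the pair that was kept and within OGD-R.

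The lysyl hydroxylase PLOD2, which prepares collagen for stable cross-links, was at 8.87, 9.10, 4.65 and 5.17 FPKM in Controls 1 to 4, while OGD-R stood at 9.44, 10.2, 9.85 and 11.2 FPKM. All OGD-R libraries lay above all Controls, the nearest Control at 9.10 against 9.44 FPKM, and the test was not passed (log2 fold change 0.54, 95% interval 0.07 to 1.01; limma adjusted p = 0.101, and 0.0468 without Control 2). With only Controls 3 and 4 kept it passed at 0.92, and with only Controls 1 and 2 kept it did not, at 0.16. PLOD1, another lysyl hydroxylase, was at 34.4, 35.9, 18.4 and 16.4 FPKM over the Controls, with OGD-R at 24.6, 21.2, 21.8 and 21.4 FPKM. The OGD-R values of PLOD1 lay between the pairs, below Controls 1 and 2 and above Controls 3 and 4. P4HA2, the second catalytic subunit, had the opposite order of Controls, at 20.6, 19.0, 35.9 and 31.2 FPKM, with OGD-R at 22.4, 22.2, 20.0 and 22.2 FPKM inside that range. LOX, the lysyl oxidase that starts cross-linking, was low throughout, at 1.06, 1.37, 0.805 and 1.001 FPKM over the Controls and 1.09, 1.54, 1.51 and 1.39 FPKM over OGD-R, so the groups overlapped. Of the exonic bases of P4HA2, 14.8% overlap an antisense gene, and since the counting is not stated to use strand its value may include that RNA.

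JMJD6 fell in OGD-R, and the 3 other JmjC dioxygenases, enzymes that need oxygen and iron, did not pass the test. JMJD6 encodes a hydroxylase of lysines in splicing proteins (ENSG00000070495, minus strand of chromosome 17, 76712832 to 76726799). Its level was 20.3, 16.1, 16.1 and 14.8 FPKM over Controls 1 to 4, and OGD-R 1 to 4 stood at 11.99, 11.5, 7.29 and 10.6 FPKM. All 4 OGD-R libraries were below the lowest Control, and OGD-R 3 was the lowest. Its log2 fold change was -0.66 ± 0.164 (SE; limma adjusted p = 0.0251). The call was lost without OGD-R 2 (limma adjusted p = 0.0504), without OGD-R 4 (0.0641) and with library weights by group (0.154). Against either pair of Controls JMJD6 was called lower: it fell by 0.77 with Controls 1 and 2 kept and by 0.56 with Controls 3 and 4 kept (limma adjusted p = 0.00379 and 0.012).

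The histone demethylases KDM3A and KDM4B had OGD-R values between the pairs of Controls. KDM3A, which removes methyl groups that silence chromatin, was at 5.26, 7.06, 17.1 and 14.3 FPKM over Controls 1 to 4, with OGD-R at 10.7, 9.85, 10.5 and 11.1 FPKM. Its log2 fold change was 0.09 with all libraries (95% interval -0.65 to 0.82; limma adjusted p = 0.872), 0.70 with Controls 1 and 2 kept and -0.53 with Controls 3 and 4 kept. KDM4B was at 2.98, 3.07, 6.68 and 5.61 FPKM over the Controls, and OGD-R stood at 4.17, 3.90, 3.92 and 4.23 FPKM. KDM4C varied less, at 3.41, 3.96, 4.87 and 4.60 FPKM over the Controls and 4.70, 4.15, 4.31 and 4.77 FPKM over OGD-R. All 3 demethylases were higher in Controls 3 and 4 than in Controls 1 and 2.

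**Figure D2:**
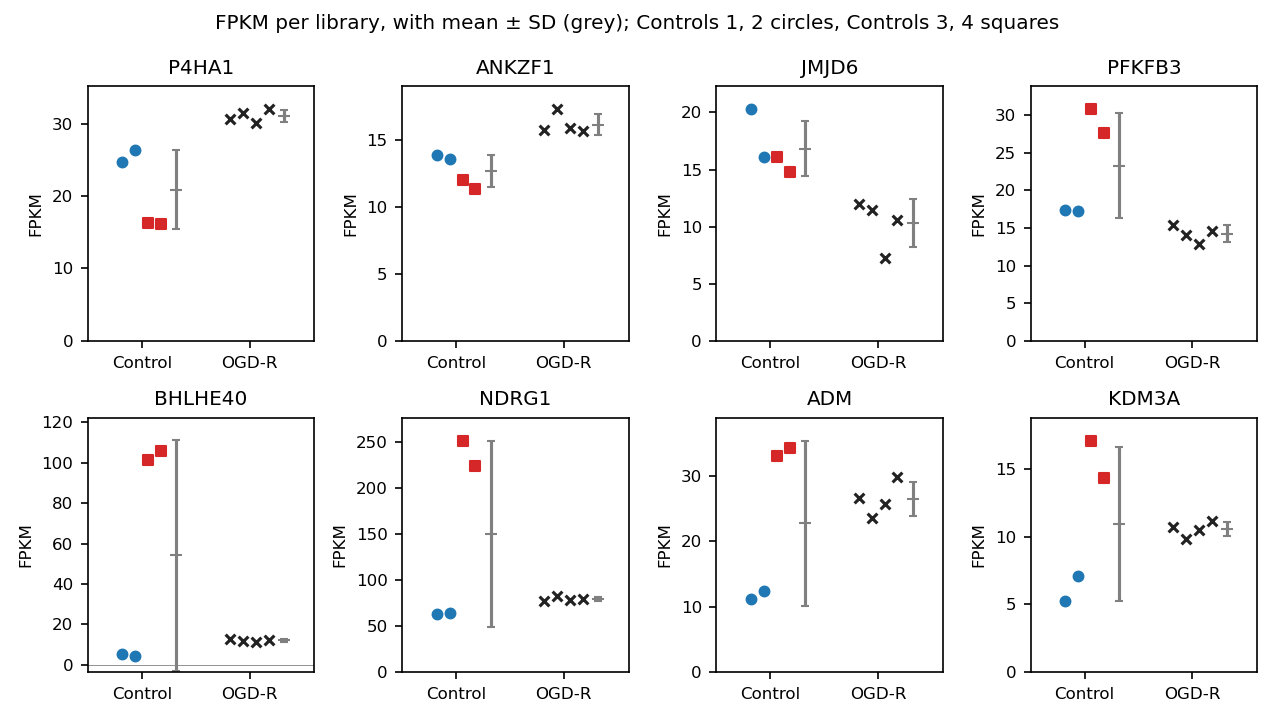
FPKM of 8 members in each library (circles, Controls 1 and 2; squares, Controls 3 and 4; crosses, OGD-R), with the mean ± SD of each group in grey, n = 4. In the upper row OGD-R lies wholly above (P4HA1, ANKZF1) or below (JMJD6, PFKFB3) the Controls, and in the lower row it lies between the pairs of Controls.

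None of the metabolic switches was called with all 8 libraries weighted equally and unscaled. PFKFB3, an enzyme that makes the fructose bisphosphate that activates phosphofructokinase, came nearest. Its level was 17.4, 17.3, 30.8 and 27.6 FPKM in Controls 1 to 4, while OGD-R stood at 15.4, 14.1, 12.8 and 14.7 FPKM. All 4 OGD-R libraries were below the lowest Control, and the log2 fold change was -0.63 (95% interval -1.08 to -0.17; limma adjusted p = 0.0582). It was called with library weights by group (0.0457), without Control 1 (0.0337) and without Control 2 (0.0318), by limma adjusted p. PFKFB3 was called lower with either pair of Controls kept, at -0.27 for Controls 1 and 2 (limma adjusted p = 0.0174) and -0.99 for Controls 3 and 4 (limma adjusted p = 6.72e-06). Its relative PFKFB4 had 2.01, 2.98, 2.28 and 1.65 FPKM over the Controls and 1.88, 1.69, 2.12 and 2.70 FPKM over OGD-R, with full overlap.

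PDK1 and PDK3 encode kinases that switch off pyruvate dehydrogenase and so keep pyruvate out of the citric acid cycle. PDK1 was at 2.65, 2.56, 2.01 and 2.04 FPKM over Controls 1 to 4, with OGD-R at 2.66, 1.70, 1.51 and 1.01 FPKM, so the groups overlapped through OGD-R 1. The highest OGD-R value of PDK1 was 2.64 times the lowest, and of the 28 tested members only PDK1 and JMJD6 had a larger SD of log2 values in OGD-R than in Control. PDK3 fell under the filter, at 1.24, 1.99, 0.418 and 0.212 FPKM over the Controls, with OGD-R at 1.09, 0.671, 0.879 and 1.26 FPKM. AK4, a mitochondrial adenylate kinase, was at 18.2, 18.8, 15.9 and 14.6 FPKM over the Controls, and OGD-R stood at 14.7, 14.4, 13.6 and 15.1 FPKM. It was called lower with Controls 1 and 2 kept (log2 fold change -0.34; limma adjusted p = 0.00237) and when libraries were scaled by their median ratio (limma adjusted p = 0.0392), and GENCODE 29 names 6 pseudogenes after it, so its value is uncertain. HILPDA, a lipid droplet protein that restrains fat breakdown, had 6.64, 7.53, 5.43 and 3.94 FPKM over the Controls and 7.12, 8.51, 5.90 and 6.88 FPKM over OGD-R. It was called higher with Controls 3 and 4 kept (log2 fold change 0.51; limma adjusted p = 0.00881), while with Controls 1 and 2 kept the log2 fold change was -0.0051. Transcripts on the same strand overlap 12.6% and 13.4% of its exonic bases. PPP1R3C, which brings a phosphatase to glycogen, was barely detected, at 0.0637, 0.134, 0.154 and 0.140 FPKM over the Controls and 0.0741, 0.164, 0.0617 and 0.209 FPKM over OGD-R.

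The mitochondrial members BNIP3 and BNIP3L, related receptors that direct mitochondria to autophagy, had opposite orders among the Controls. BNIP3 was at 9.13, 10.6, 4.22 and 3.38 FPKM in Controls 1 to 4, while OGD-R stood at 3.61, 4.11, 3.03 and 3.99 FPKM. OGD-R thus lay well below Controls 1 and 2 and beside Controls 3 and 4, and BNIP3 was called lower (log2 fold change -1.22; limma adjusted p = 2.19e-05) only in the fit that kept Controls 1 and 2 of the 3 fits by choice of Controls. BNIP3L was at 11.7, 11.97, 21.5 and 19.7 FPKM over the Controls, with OGD-R at 14.2, 13.1, 12.9 and 14.2 FPKM, between the pairs. GENCODE 29 names 39 pseudogenes after BNIP3, so how reads were divided makes its value uncertain. FAM162A, a mitochondrial protein linked to cell death in hypoxia, was at 16.9, 15.5, 8.43 and 8.90 FPKM over the Controls, and OGD-R stood at 16.0, 18.6, 18.1 and 17.7 FPKM. For FAM162A, OGD-R overlapped Control 1 but lay far above Controls 3 and 4 (log2 fold change 0.95 with these kept, 0.11 with Controls 1 and 2 kept, 0.53 with all; limma adjusted p = 4.58e-06, 0.238 and 0.131).

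The widest Control spread of the 28 tested members was that of the transcription regulator BHLHE40. BHLHE40, a repressor that binds E-boxes, was at 5.11, 4.42, 101 and 106 FPKM over Controls 1 to 4, with OGD-R at 12.9, 11.7, 11.5 and 12.4 FPKM. Its highest Control was 23.9 times its lowest, whereas its highest OGD-R library was 1.12 times the lowest. Its log2 fold change was 1.19 with Controls 1 and 2 kept (limma adjusted p = 3.61e-06) and -3.00 with Controls 3 and 4 kept (limma adjusted p = 2.01e-09). With all libraries it was -0.90, with a 95% interval of -3.29 to 1.48 (limma adjusted p = 0.577). A fold change for BHLHE40 therefore has no single direction in these data. MXI1, which competes with MYC for its partner MAX, was at 2.88, 3.76, 10.4 and 9.41 FPKM over the Controls, with OGD-R at 5.29, 5.50, 5.67 and 7.37 FPKM. ZNF395, a zinc finger factor, had the reverse order, at 11.6, 12.1, 6.96 and 7.35 FPKM over the Controls, and OGD-R stood at 12.5, 12.3, 12.1 and 11.9 FPKM. RORA, a nuclear receptor, was under the filter, at 0.378, 0.427, 1.06 and 1.54 FPKM over the Controls, with OGD-R at 0.0360, 0.236, 0.254 and 0.0819 FPKM. Every OGD-R library of RORA lay below every Control, and the test without the filter was not passed (limma adjusted p = 0.0794). Such an ordering held for 14.8% of genes over the filter and was not counted for genes under it.

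ADM, NDRG1 and DDIT4, the peptide and stress signalling members, had OGD-R values between the pairs of Controls. The fits that kept 1 pair of Controls therefore gave each of them opposite directions, and each was called in both. With Controls 1 and 2 kept, 23% of all tested genes were called higher and 32.5% lower. With Controls 3 and 4 kept, these shares were 39.3% and 28.5%. The p-values of these fits rest on the spread within the kept pair and within OGD-R. ADM encodes adrenomedullin, a peptide that widens blood vessels. Its level was 11.2, 12.4, 33.01 and 34.3 FPKM in Controls 1 to 4, while OGD-R stood at 26.7, 23.6, 25.7 and 29.7 FPKM, with log2 fold changes of 1.1 with Controls 1 and 2 kept and -0.34 with Controls 3 and 4 kept (limma adjusted p = 1.29e-05 and 0.00732). NDRG1, a differentiation and stress protein, was at 63.1, 64.4, 252 and 224 FPKM over the Controls, and OGD-R stood at 78.0, 83.0, 78.5 and 80.2 FPKM. Its log2 fold changes in these fits were 0.32 and -1.56 (limma adjusted p = 0.0011 and 6.90e-08). DDIT4, an inhibitor of mTOR, was at 139, 138, 237 and 198 FPKM over the Controls, with OGD-R at 180, 169, 161 and 167 FPKM. Its log2 fold changes were 0.29 and -0.36 in the same fits (limma adjusted p = 0.00348 and 0.00443). Of the exonic bases of DDIT4, 48.5% overlap DDIT4-AS1, so reads of the 2 genes may not be told apart. With all 8 libraries none of the 3 passed (limma adjusted p = 0.506, 0.391 and 0.909).

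Of the remaining genes, ANKZF1 rose in OGD-R. ANKZF1 frees unfinished protein chains from stalled ribosomes (ENSG00000163516, chromosome 2, 219229757 to 219236669, plus strand). It was at 13.9, 13.6, 12.02 and 11.3 FPKM over Controls 1 to 4, and OGD-R 1 to 4 stood at 15.7, 17.3, 15.9 and 15.7 FPKM. All 4 OGD-R libraries were above the highest Control, and the log2 fold change was 0.33 ± 0.0914 (SE; limma adjusted p = 0.0389). The call was lost without Control 3, without Control 4 and without each OGD-R library in turn (limma adjusted p = 0.0705 to 0.122), with a replicate block (0.11) and with library weights by group (0.0808). With Controls 1 and 2 kept it was 0.22, and with Controls 3 and 4 kept 0.44 (limma adjusted p = 0.0215 and 0.000469).

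WSB1, a substrate receptor of a ubiquitin ligase, was at 9.92, 11.6, 22.1 and 19.6 FPKM over Controls 1 to 4, with OGD-R at 16.3, 13.9, 12.5 and 15.9 FPKM, between the pairs. TMEM45A, a membrane protein of keratinising epithelium, was at 14.7, 12.6, 6.07 and 4.81 FPKM over the Controls, and OGD-R stood at 6.34, 7.19, 6.55 and 7.54 FPKM, again between them. ANKRD37, an ankyrin repeat protein, was at 1.72, 1.85, 3.33 and 1.99 FPKM over the Controls, with OGD-R at 1.69, 1.49, 1.70 and 1.99 FPKM. FUT11, a fucosyltransferase, had 2.59, 3.05, 2.44 and 1.67 FPKM over the Controls and 2.09, 2.19, 1.94 and 2.46 FPKM over OGD-R. An opposite-strand gene overlaps 26.3% of its exonic bases, so its value is uncertain.

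GPR146 and SPAG4 were low, and all OGD-R libraries of both lay above all Controls. That ordering held for 15.2% of genes over the filter and was not counted for genes under it. The low markers LUM, DCN, VWF, CD14 and PMEL were ordered the same way, while others, such as LYZ, were not. GPR146, an orphan receptor, was at 0.0376, 0.0835, 0.335 and 0.337 FPKM in Controls 1 to 4, while OGD-R stood at 0.697, 0.613, 0.572 and 0.477 FPKM. SPAG4, a SUN-domain protein of the nuclear envelope, was at 0.114, 0.281, 0.147 and 0.146 FPKM over the Controls, and OGD-R stood at 0.610, 0.291, 0.374 and 0.575 FPKM. Tested without the filter, where 7.86% of 21214 genes were called higher, both passed (limma adjusted p = 0.0311 and 0.0454), with ANKZF1, and P4HA1 did not. JMJD6 was again the 1 member called lower, against 5.37% of those genes. An antisense gene overlaps 79.3% of the exonic bases of GPR146, so its value is uncertain.

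**Figure D3:**
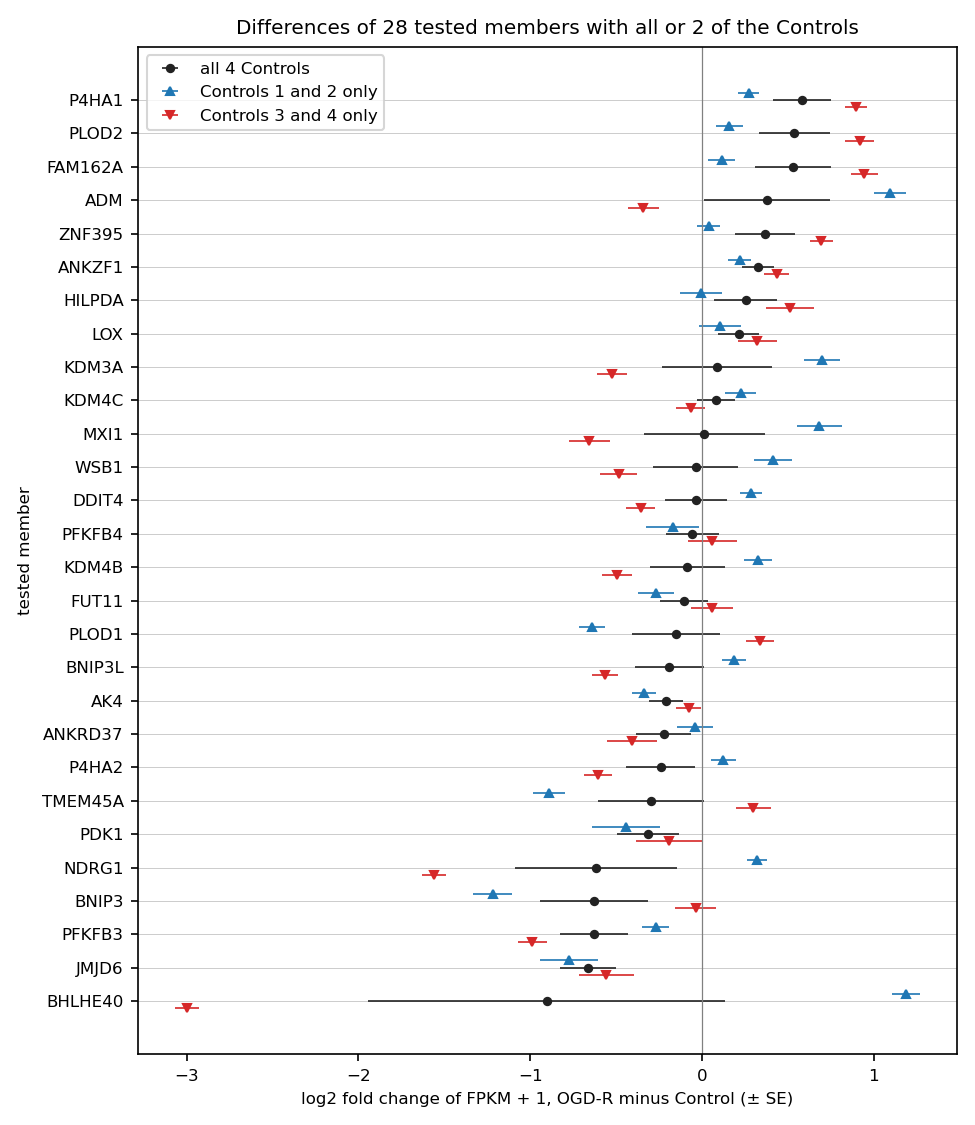
Log2 fold change of FPKM + 1, OGD-R minus Control, with its standard error for each of the 28 tested members, with all 4 Controls (circles), Controls 1 and 2 only (upward triangles) and Controls 3 and 4 only (downward triangles). For BHLHE40 the values are -0.90, 1.19 and -3.00, and for JMJD6 they are -0.66, -0.77 and -0.56.

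Among the members the Controls varied more than the OGD-R libraries, for 26 of the 28 tested. The share of all tested genes with this order was not counted. Their median SD was also larger in Control, as given below. Controls 3 and 4 were both above Controls 1 and 2 for 13 of the 28 tested members (34.1% of all tested genes) and both below for 14 (48.1% of all), with PFKFB4 the remaining one. The means of the 2 pairs differed at least 2-fold for 9 of 28 members, against 22.4% of all tested genes. The highest Control was a median of 1.90 times the lowest over the tested members, and in OGD-R this ratio was 1.17. The median SD of log2(FPKM + 1) among the members was 0.43 in Control and 0.09 in OGD-R, against 0.29 and 0.09 over all tested genes. ACGTG occurred in 6 of 11 promoters of members higher in Controls 3 and 4 and in 6 of 9 promoters of members lower there.

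OGD-R often took a middle position. For 11 of the 28 tested members every OGD-R library lay between Controls 1 and 2 on one side and Controls 3 and 4 on the other, against 20.4% of all tested genes. These were BNIP3L, PLOD1, KDM3A, KDM4B, BHLHE40, MXI1, ADM, NDRG1, DDIT4, WSB1 and TMEM45A. OGD-R lay wholly above the Controls for 3 members (15.2% of all tested genes) and wholly below for 2 (14.8% of all). It stayed within the Control range for 15 members (39.6% of all). With Controls 1 and 2 kept, the filter left 29 members, of which 11 were called higher and 6 lower, against 23% and 32.5% of all genes tested. With Controls 3 and 4 kept, 9 of 28 were called higher and 13 lower, against 39.3% and 28.5%. The median log2 fold change of the members was 0.11 in the former fit and -0.13 in the latter, where that of all tested genes was -0.05 and 0.09.

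**Figure D4:**
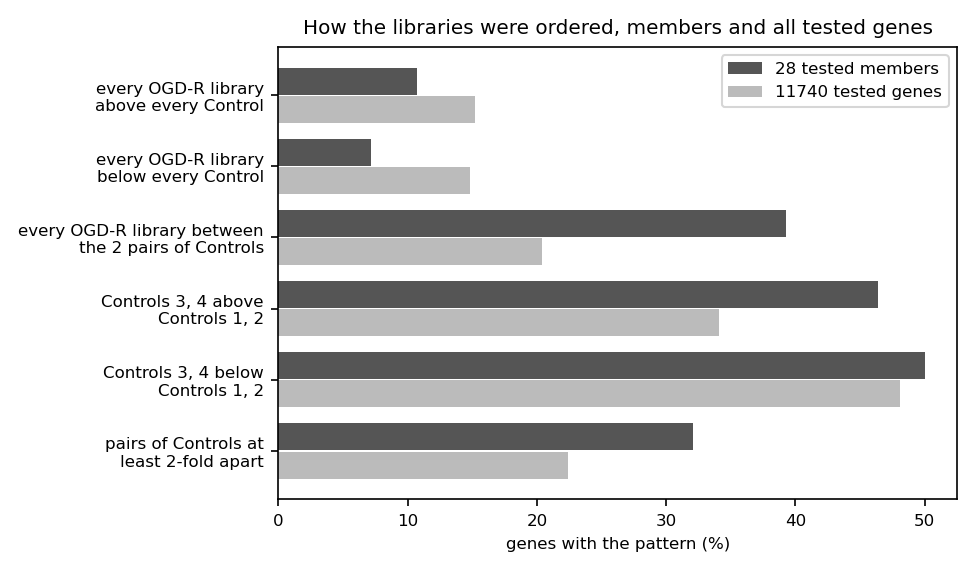
Share of genes, in percent, whose libraries were ordered in each of 6 ways, for the 28 tested members (dark bars) and all 11740 tested genes (light bars). OGD-R lay between the pairs of Controls for 11 of 28 members and for 20.4% of all genes, and wholly above the Controls for 3 of 28 and 15.2%.

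Of 39 other genes of the hypoxia pathway, all found in the tables, 32 were tested. ALDOC, an aldolase, rose and 9 genes fell, or 3.12% and 28.1% of the list, against 10.2% and 9.69% of all tested genes. With Controls 1 and 2 kept, 5 rose and 19 fell of 31, and with Controls 3 and 4 kept 14 rose and 14 fell of 32. The shares over all tested genes were 23% and 32.5% in the former fit and 39.3% and 28.5% in the latter. ALDOC was at 6.54, 8.09, 6.61 and 6.22 FPKM over the Controls, and OGD-R had 12.7, 9.70, 9.45 and 8.97 FPKM. Its log2 fold change was 0.50 (limma adjusted p = 0.0272), a call lost with a replicate block (0.0765), with library weights (0.142) and without Control 3, Control 4 or OGD-R 1, 2 or 3 (0.0557 to 0.0688). Of those that fell, the 4 of smallest p were ANGPTL4 (a secreted lipase inhibitor), PFKP (phosphofructokinase), SLC16A3 (a lactate exporter) and HK2 (hexokinase). ANGPTL4 was at 34.7, 35.3, 58.9 and 54.4 FPKM over the Controls, and OGD-R had 5.28, 5.65, 5.56 and 6.497 FPKM. HK2 was at 10.1, 10.4, 21.2 and 17.7 FPKM over the Controls, and OGD-R had 5.17, 5.31, 5.003 and 5.70 FPKM. For both, every OGD-R library was below the lowest Control. SLC16A3 was at 11.1, 12.3, 20.1 and 15.1 FPKM over Controls 1 to 4, with OGD-R at 5.90, 5.95, 4.32 and 4.17 FPKM. PFKP was at 130.1, 122.9, 132.7 and 118 FPKM over the Controls, with OGD-R at 84.6, 83.4, 78.3 and 80.5 FPKM, with the Control pairs overlapping. The log2 fold changes of these 4 were -2.76, -0.62, -1.35 and -1.27 in the order named (limma adjusted p = 9.66e-05, 0.00142, 0.00257 and 0.00722). HIF1A, the oxygen-regulated subunit of HIF, was at 45.5, 50.3, 53.5 and 54.9 FPKM over the Controls, and OGD-R stood at 37.3, 34.9, 35.5 and 37.4 FPKM. It fell by 0.48 on the log2 scale (limma adjusted p = 0.00756; 0.0542 with a replicate block). EPAS1, its HIF-2 alpha relative, did not pass (log2 fold change 0.08; limma adjusted p = 0.814), and its direction turned between the fits with a pair of Controls left out. CA9, a carbonic anhydrase, was under the filter, at 0.0217, 0.0506, 0 and 0 FPKM over the Controls and 0.587, 0.263, 0.265 and 0.130 FPKM over OGD-R. Tested without the filter, CA9 rose (limma adjusted p = 0.0474). VEGFA, the angiogenic growth factor, was at 25.8, 25.8, 127.6 and 142 FPKM over the Controls, and OGD-R had 11.0, 10.6, 11.3 and 12.1 FPKM. Its log2 fold change was -2.30 with all Controls (limma adjusted p = 0.0279), -1.13 with Controls 1 and 2 kept and -3.47 with Controls 3 and 4 kept (1.94e-06 and 1.76e-09). With all Controls it was a call lost without Control 3 or any single OGD-R library (limma adjusted p = 0.0578 to 0.0767).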

How the data were processed

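RNA-seq of HaCaT cells gave 1 table per library. The values the authors deposited were read as FPKM: no label or file header names the unit, and low values of single-exon genes fell near whole multiples of a length-dependent step in only 18 to 33 of 114 to 146 cases, within 0.5%, over a range of steps narrowed after a first look. Depth is therefore unknown and no counting interval is given. Aligner, annotation, strand use and build: not given in the sources used here. All 19974 Ensembl IDs occur in GENCODE 29.

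Each test was limma 3.58.1 (R 4.3.3) with an intensity trend on log2(FPKM + 1), over genes averaging 1 FPKM or more, for 4 OGD-R against 4 Control libraries, with Benjamini-Hochberg adjustment over all tested genes and calls made at 0.05. Low genes have their fold changes understated by the pseudocount. The model was also run on simulated normal values with the same spread in both groups. That setting lacks the split of the Controls, and no result here rests on it. Alternatives changed the pseudocount, filter, scaling, trend, library weights and block, or left out libraries or a pair of Controls. Members, gene lists (39 pathway genes and markers of keratinocytes, fibroblasts, endothelium, leukocytes and melanocytes) and tests were chosen with earlier results of these data known.

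All 33 members are accounted for. Values in every library are given for members past the threshold, for those that turn direction between the fits with a pair of Controls left out, and for those under the filter, with further members added for their role. Up to 4 called pathway genes of smallest p are named, beside HIF1A, EPAS1, VEGFA and CA9. ALDOC is named as the 1 pathway gene called higher.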

Additional observations from a re-analysis of the deposited data

Results flagged for a closer look

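A single library stood apart from the other 3 of its group, by Dixon's criterion for 4 values, in 4 of the 82 groups of 4 looked at over 41 named genes. Chance gives about 5% of groups whose 4 values share 1 normal distribution. Controls split into pairs seldom meet the criterion, so this rate cannot be set against all 82 groups. P4HA2 was at 19.98 FPKM in OGD-R 3, where the other OGD-R libraries lay between 22.15 and 22.36 FPKM. PLOD1 was at 24.56 FPKM in OGD-R 1, against 21.24 to 21.76 FPKM in the others. ANKRD37 was at 3.332 FPKM in Control 3, against 1.721 to 1.986 FPKM in the other Controls. ANKZF1 was at 17.3 FPKM in OGD-R 2, against 15.67 to 15.9 FPKM in the others, and without OGD-R 2 its limma adjusted p was 0.122.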

How the results depend on the processing

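Against 1202 higher and 1138 lower calls over all genes, there were 2700 and 3808 with Controls 3 and 4 left out, 4636 and 3360 with Controls 1 and 2 left out, 625 and 507 with a replicate block, 689 higher with a mean of at least 5 FPKM, and 700 to 1448 higher and 565 to 1321 lower when 1 library was left out. Scaling moved the split to 1611 higher and 873 lower with equal sums without mitochondrial mRNAs (median log2 fold change 0.08 against 0.02), and to 1146 and 1430 with median-ratio scaling. Members called higher numbered 0 with the block (3 at an unadjusted p under 0.05, by limma), 1 with library weights (where PFKFB3 was the 1 lower call, in place of JMJD6), 11 with Controls 3 and 4 left out, 9 with Controls 1 and 2 left out, and 0 to 3 without 1 library (2 to 3 unadjusted where 0, by limma). Members called lower numbered 2 with median-ratio scaling, 6 and 13 with those pairs left out, and 0 to 2 without 1 library (2 unadjusted where 0, by limma). Pathway genes called higher numbered 2 without a filter, 2 with equal sums, 0 with the block and 0 with weights (1 unadjusted each, by limma), 5 and 14 with the pairs left out, and 0 to 1 without 1 library (1 to 2 unadjusted where 0, by limma), and those called lower 19 and 14, and 6 to 9. Deviations of same-numbered libraries correlated at 0.045 to 0.0646, and 1 of 4 Controls correlated best with its own number. Because the Controls were split and OGD-R was not, these values cannot show whether the libraries were paired. Log2 fold changes turned direction with Controls 1 and 2 left out for PFKFB4 (0.0599), PLOD1 (0.34), KDM3A (-0.53), KDM4C (-0.0657), MXI1 (-0.65), ADM (-0.34), TMEM45A (0.30), FUT11 (0.0601) and EPAS1 (-0.32). With Controls 3 and 4 left out they turned for HILPDA (-0.0051), BNIP3L (0.19), P4HA2 (0.12), KDM4B (0.33), BHLHE40 (1.19), NDRG1 (0.32), DDIT4 (0.29) and WSB1 (0.41). They also turned for MXI1 with median-ratio scaling (-0.0337) and for DDIT4 (0.0394) and WSB1 (0.0343) with equal sums. Leaving out 1 library gave -0.15 to 0.0503 for PFKFB4, -0.34 to 0.0223 for PLOD1, -0.18 to 0.33 for KDM3A, -0.23 to 0.0894 for KDM4B, -0.26 to 0.26 for MXI1, -0.15 to 0.12 for DDIT4, -0.22 to 0.14 for WSB1 and -0.0582 to 0.23 for EPAS1. The cause of these changes was not tested. Over single genes, 239 values without 1 library kept their direction and side of the threshold, 19 lost and 4 gained the call and 18 turned direction. Under the other settings these counts were 327, 6, 25 and 20. With 4 libraries a group and no counts, counting error cannot be given for low genes such as PPP1R3C.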
